A study of Mus musculus with 26 samples.

Results

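The peroxiredoxins and thioredoxins described here are 9 genes: Prdx1, Prdx2, Prdx3, Prdx4, Prdx5, Prdx6, Txn1, Txn2 and Txnrd1. They were chosen by name, as the rows of a raw count table whose Ensembl IDs carry these symbols in the GENCODE vM21 annotation of the mouse genome build GRCm38. All 9 were found, among 55401 rows. The table covers 26 libraries made by RNA-seq from mouse MII oocytes, unfertilised eggs at rest in the second meiotic metaphase, and from 1-cell embryos. The question posed was how blocking the transcription factor c-Myc or RNA polymerase II alters the transcripts of the 1-cell embryo.

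The titles number the libraries in a first and a second series. The first series holds 7 libraries of untreated control embryos and 7 of embryos given 10058-F4, a thiazolidinone that inhibits c-Myc, for 10 h, starting 2 h after insemination. The second holds 4 libraries of MII oocytes labelled 0 h, 4 of untreated control embryos and 4 of embryos given alpha-amanitin, a toxin that blocks RNA polymerase II, for 10 h at 100 µg/ml, starting 1 h after insemination. Oocytes were of strain B6D2F1 and embryos B6D2F1xB6D2F1 (F2), all came from superovulated females of 8 weeks, and all embryos were made by in vitro fertilisation and carry the label 10 h. The start and the exposure add up to more than that label for both treatments. The protocols place untreated embryos beside alpha-amanitin embryos at collection but give no collection time for the first-series controls, so a difference in age between them and the embryos given 10058-F4 cannot be told apart from the treatment. The protocols also name a further c-Myc inhibitor, which no library title carries, and give no dose for 10058-F4. Cells were lysed directly and total RNA was amplified with a stranded kit for very small inputs. The number of embryos in a library is not stated outright, so n counts libraries. Nothing in the labels says that libraries of a group came from separate matings, so each p-value measures only the spread between these libraries.

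Peroxiredoxins are enzymes that remove hydrogen peroxide with a reactive cysteine, which is oxidised in the process. In most of them a thioredoxin, a small protein with a pair of cysteines, reduces the enzyme again, and thioredoxin reductase, a selenoprotein that draws on NADPH, then reduces the thioredoxin. Prdx1, Prdx2, Txn1 and Txnrd1 work mainly in the cytosol, Prdx3 and Txn2 in mitochondria, Prdx4 in the endoplasmic reticulum, and Prdx5 in several compartments. The oocyte has a large store of mRNA, and the 1-cell embryo begins to transcribe its own genome while that store decays.

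The coding stretches around the reactive residues show what the family shares and where its members differ. They are given for the 4 peroxiredoxins whose reactive cysteine stands in the same setting, for Txn1 and for Txnrd1, from GENCODE vM21 on GRCm38, with the codon of each reactive cysteine in capitals. In Txnrd1 the capitals also hold the following TGA, which is read as selenocysteine and stands just before the end of the coding sequence. The stretches lie at chr4:116691814-116691840 (plus strand) for Prdx1, chr8:84970474-84970500 (plus) for Prdx2, chr19:60870112-60870138 (minus) for Prdx3, chrX:155332445-155332471 (minus) for Prdx4, chr4:57951815-57951841 (minus) for Txn1 and chr10:82896025-82896045 (plus) for Txnrd1, each within 1 coding exon.
Prdx1: acttttgtgTGTcccacggagatcatt
Prdx2: acttttgttTGCcccacggagatcatc
Prdx3: acatttgtgTGTcctacagaaattgtt
Prdx4: acctttgtgTGTccaactgaaatcatc
Txn1: gctacgtggTGTggacctTGCaaaatg
Txnrd1: cagtctggcTGCTGAggttaa

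The coding sequences of Prdx1 and Prdx2 are identical at 71.2% of 593 aligned bases, and their longest identical run is 14 bases. That bears on the counts, because the main results turn on these 2 genes and on the difference between them. Processed copies elsewhere in the genome are closer: 3 annotated genes match Prdx1 transcripts, and 3 match those of Prdx2, at 90% identity or more over at least 200 bases. The 3 copies of Prdx1 together had a mean of 0.398 CPM (counts scaled to a common library total) in first-series controls and 0.172 CPM in embryos treated with the c-Myc inhibitor. In the second series they had group means of 4.21 to 6.03 CPM, with up to 10.5 CPM in a library. The 3 copies of Prdx2 had a mean of 0.654 CPM in first-series controls and 1.73 CPM with the c-Myc inhibitor, where 1 library had 6.66 CPM. How the authors' counting treated reads shared with such copies is unknown from the sources at hand, so counts of Prdx1 and Prdx2 carry that uncertainty.

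Library totals ran from 20566278 to 27266040 counts in the first series and from 5371602 to 31540627 in the second, where alpha-amanitin replicate 3 is the shallow one. All levels are CPM with totals scaled by TMM, so each is a share of a library, and a smaller share cannot be told apart from less RNA of that gene per embryo. Libraries of a group varied more in the second series, where the biological coefficient of variation was 1.12, than in the first, where it was 0.555. All 12 oocyte markers examined had counts in every group. Their summed level was 4717 to 6558 CPM of raw totals in first-series controls and 7644 to 9168 CPM in embryos treated with the c-Myc inhibitor. It was 8841 to 9676 CPM in oocytes, 4918 to 6227 CPM in second-series controls and 5192 to 7551 CPM in alpha-amanitin embryos. Markers of cumulus and granulosa cells, which surround the oocyte, summed to 9.56 to 85.5 CPM over all libraries, with 9 to 12 of 15 markers detected in a group. The sperm list had 2 to 5 of 10 markers detected in a group, with Tnp1, Tnp2 and Smcp at 0 throughout. Its sum was 263 to 364 CPM in first-series controls and 334 to 549 CPM in embryos treated with the c-Myc inhibitor. Over the second series it was 159 to 390 CPM. In unfertilised oocytes 2 of the 10 genes alone gave 191 to 279 CPM, so the sum does not measure sperm. Mitochondrially encoded genes took 0.564% to 2.47% of counts in first-series controls and 1.72% to 2.27% in treated embryos. They took 1.51% to 2.43% in oocytes, 2.79% to 3.71% in second-series controls and 2.52% to 3.16% in alpha-amanitin embryos.

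Per length, Prdx2 and Prdx1 were the most abundant of the 9 transcripts in every group, and Prdx4 and Prdx6 the least. Length is the union of all annotated exons, 3043 bases for Prdx1 and 4208 for Txn2. The order and the overlaps between genes therefore depend on that annotation. In oocytes the levels were 98.8 ± 14.5 CPM per kb of exon for Prdx2, 61.5 ± 6.52 for Prdx1, 19.2 ± 1.37 for Txn2 and 16.9 ± 0.896 for Txnrd1 (SD, n = 4). Libraries of Prdx2 and Prdx1 did not overlap in oocytes, nor did those of Prdx1 and Txn2, while Txn2 and Txnrd1 did overlap. Next came Txn1, Prdx5 and Prdx3, at 11.6, 11.0 and 7.91 CPM per kb, whose libraries overlapped from one to the next. Prdx6 and Prdx4 stood at 0.433 and 0.419 CPM per kb. In first-series controls the order of the leading genes was the same, with Prdx2 at 72.5 ± 9.71, Prdx1 at 45.0 ± 5.50, Txn2 at 19.7 ± 2.27 and Txnrd1 at 15.7 ± 2.48 CPM per kb (SD, n = 7). In embryos treated with the c-Myc inhibitor Prdx1 stood at 24.6 ± 6.98 CPM per kb and its libraries overlapped those of Txn2, at 19.6 ± 3.26, which they did in no other group.

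Prdx1, Prdx2, Txn2 and Txnrd1 together made up 93.2% to 95.4% of the summed level of the 9 genes, as group means. The sum was 739 ± 40.7 CPM in oocytes, 647 ± 73.0 in second-series controls and 596 ± 136 in alpha-amanitin embryos (SD, n = 4 each). It was 579 ± 31.4 CPM in first-series controls and 529 ± 27.1 in embryos treated with the c-Myc inhibitor (SD, n = 7 each).

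**Figure D1:**
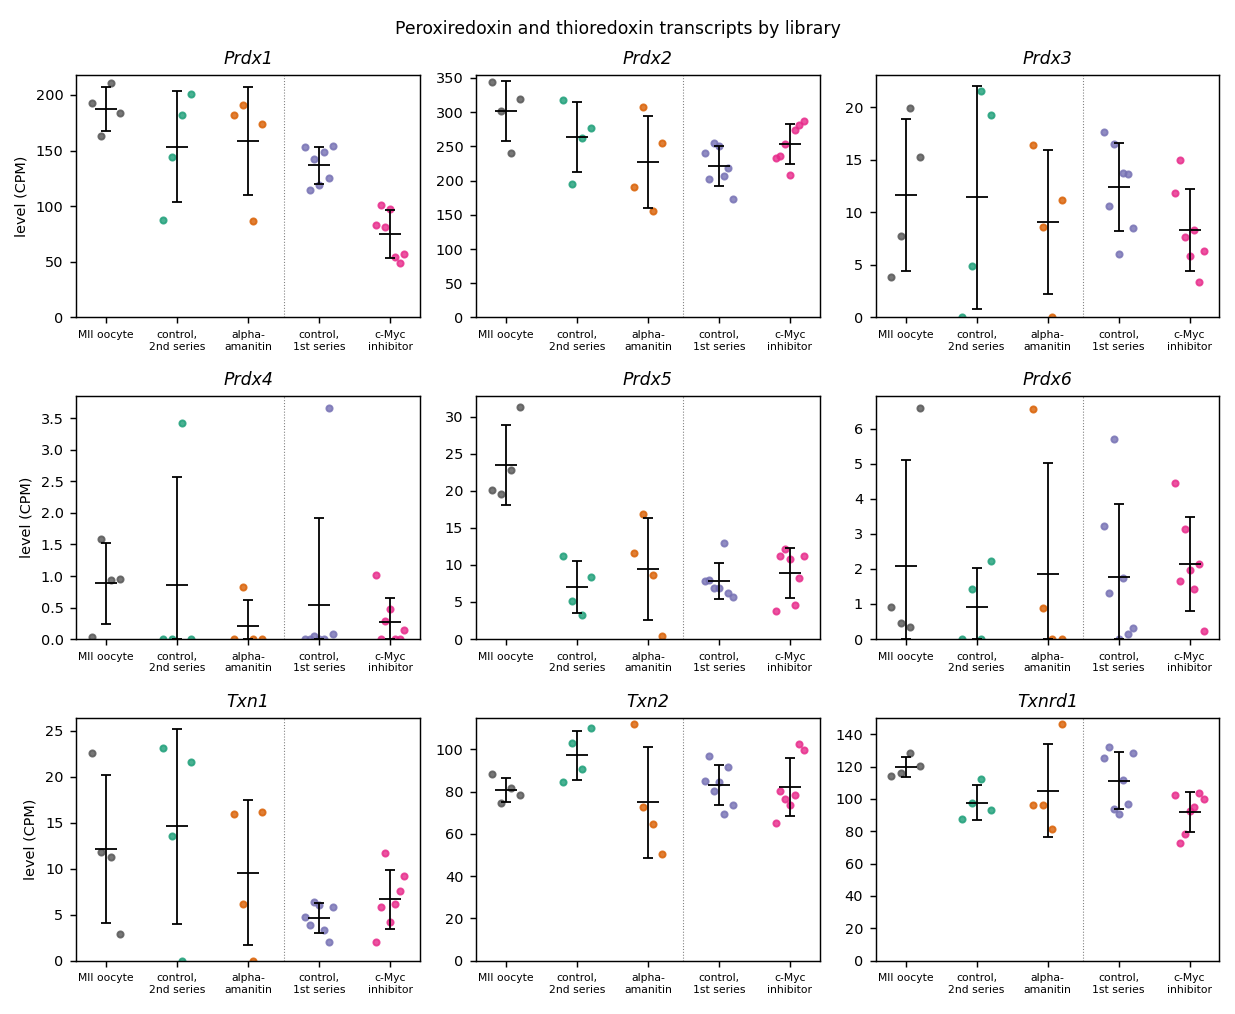
Level of each of the 9 genes in each library, in CPM with TMM-scaled totals (y axis, from 0), by group (x axis). Points are libraries, the horizontal line is the group mean and the bars are ± SD, cut off at 0 where they would pass below it, and the dotted line parts the second series (left) from the first (right). Prdx1 is the gene whose 7 libraries treated with the c-Myc inhibitor, at 49.2 to 100.8 CPM, all lie below the 7 controls of the same series, at 114.6 to 154.0 CPM.

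With the c-Myc inhibitor Prdx1 fell, and it was the only 1 of the 9 genes to pass the test. Prdx1, a cytosolic peroxiredoxin (GRCm38 chromosome 4, 116685544 to 116700822, plus strand), had 114.6 to 154.0 CPM in the 7 control libraries, with a median of 142.8. In the 7 treated libraries it had 83.5, 100.8, 81.2, 97.8, 54.6, 49.2 and 56.9 CPM (replicates 1, 2, 3, 4, 5, 7 and 8). Every treated library was below every control library, as was so in one direction or the other for 3.91% of all genes tested. The means were 137 ± 16.7 and 74.9 ± 21.2 CPM (SD, n = 7 each). On the log2 scale the fold change was -0.86 (SE 0.15), or 0.551 of the control level. The adjusted p was 0.000249 (edgeR quasi-likelihood F test, Benjamini-Hochberg over all 13003 genes tested). Of the 9 genes 8 passed the filter on low counts, 0 were higher and 1 was lower at an adjusted p under 0.05. The same call was made for 10.9% of all genes tested, 6.82% as higher and 4.08% as lower. By size of change Prdx1 ranked 30 among the 531 lower genes, and 12 among the 513 of them whose mean reached 10 CPM.

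The call on Prdx1 did not rest on a single library or setting. Over 14 fits that each left out 1 library, the log2 value lay between -0.95 and -0.78 and the edgeR adjusted p between 9.63e-05 and 0.000945. Over 7 other settings, DESeq2 and limma voom among them, it lay between -0.91 and -0.86 with adjusted p between 2.83e-07 and 0.00363. The treated group also stands higher than its controls in the sum of oocyte markers, as given above. The part of that sum in the Prdx1 result was not tested. The sum of the sperm list was higher as well, but it does not measure sperm. Cumulus markers summed to 12.2 to 37.2 CPM in controls and 22.5 to 41.0 in treated libraries.

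Prdx2, the other main cytosolic peroxiredoxin, did not pass the test. It had 173.6 to 255.6 CPM in controls (median 217.9) and 232.7, 236.4, 253.5, 207.6, 273.5, 281.8 and 287.4 CPM in treated libraries. The groups overlapped, with means of 221 ± 29.6 and 253 ± 29.4 CPM (SD, n = 7 each) and a log2 difference of 0.21 (SE 0.10, unadjusted p 0.0392, edgeR adjusted p 0.193). Prdx2 shares 177 exon bases with Rnaseh2a and 173 with Junb, both on the opposite strand, so without a known strand setting its counts may hold reads of theirs. The 3 treated libraries with the least Prdx1, replicates 5, 7 and 8, were the 3 with the most Prdx2. In controls this did not hold: replicates 2, 5 and 7 had the least Prdx1, and replicates 1, 4 and 5 the most Prdx2. The order was not tested.

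As Prdx1 and Prdx2 had signs that differed, their ratio within each library was compared, a measure chosen after the values were seen and one that does not depend on how libraries are scaled. The log2 ratio of Prdx1 to Prdx2 was -0.69 ± 0.29 in controls, from -1.08 to -0.17, and -1.80 ± 0.58 in treated libraries, from -2.52 to -1.09 (SD, n = 7 each). No treated library reached the lowest control. The difference was -1.11, from a ratio of 0.620 to one of 0.287. Since the pair was picked for these values, the difference is given as a description, with no test. In the second series the log2 ratio differed by 0.29 between alpha-amanitin and control, by -0.14 between control embryo and oocyte and by 0.14 between alpha-amanitin embryo and oocyte, with overlapping libraries in each.

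**Figure D2:**
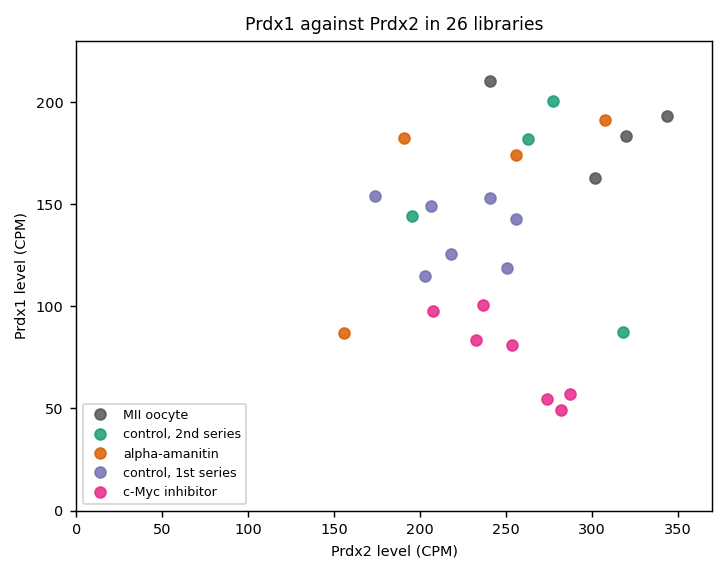
Prdx1 level (y axis) against Prdx2 level (x axis), both in CPM with TMM-scaled totals, for the 26 libraries, with 1 point per library coloured by group and both axes from 0. The 7 libraries treated with the c-Myc inhibitor lie low on the Prdx1 axis, at 49.2 to 100.8 CPM, over a Prdx2 range of 207.6 to 287.4 CPM that overlaps the controls.

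Txnrd1, the cytosolic thioredoxin reductase, had 90.8 to 132.1 CPM in controls and 72.5 to 103.5 CPM in treated libraries. The ranges overlapped, and the log2 fold change of -0.26 (SE 0.11, unadjusted p 0.0313) did not pass at an edgeR adjusted p of 0.168. Txn2, the mitochondrial thioredoxin, had 83.1 ± 9.56 and 82.4 ± 13.7 CPM (SD, n = 7 each), with a log2 fold change at 0.00 (SE 0.12; adjusted p in edgeR 0.997). With the other cytosolic and mitochondrial members the error was larger. Prdx3, the mitochondrial peroxiredoxin, had 6.07 to 17.6 CPM in controls and 3.38 to 14.9 CPM in treated libraries (log2 -0.56, SE 0.32). Txn1, the cytosolic thioredoxin, had 2.00 to 6.37 and 2.00 to 11.7 CPM (log2 0.55, SE 0.40). Their edgeR adjusted p were 0.330 and 0.489, so neither passed the test.

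Prdx5 had 5.70 to 13.0 CPM in controls and 3.82 to 12.2 in treated libraries, and Prdx6, a peroxiredoxin with 1 reactive cysteine, 0 to 5.70 and 0.232 to 4.46 CPM. Neither passed, with log2 fold changes of 0.20 (SE 0.31) and 0.28 (SE 0.90) and edgeR adjusted p of 0.798 and 0.918. Prdx4, the peroxiredoxin of the endoplasmic reticulum, was below the filter on low counts, with a count in 3 of 7 control and 4 of 7 treated libraries and at most 3.67 CPM. A count of 0 in all 7 libraries would allow up to 0.0187 CPM in controls and 0.0180 in treated embryos, for counting error only. These are not limits on Prdx4 itself, which had means of 0.543 CPM in controls and 0.275 in treated embryos. The median log2 fold change of the 8 genes tested was 0.10, against -0.00 for all genes tested.

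Alpha-amanitin called none of the 9 genes against its own control, where 0.0305% of 13133 genes were called. None of the 9 had an unadjusted p under 0.05 in the edgeR test, beside 7.51% of all genes tested. DESeq2 called none of the 9 either, beside 91 higher and 32 lower among all genes tested. Prdx1 had 87.6, 144.2, 181.8 and 200.4 CPM in the 4 control libraries and 182.3, 191.3, 86.7 and 173.8 CPM in the 4 alpha-amanitin libraries. Each group thus had 1 library near 87 CPM and 3 from 144.2 CPM upwards. The log2 fold change was 0.08 (SE 0.27, edgeR adjusted p 0.998), and leaving out 1 library at a time moved it between -0.13 and 0.27. Prdx2 had 318.1, 195.6, 263.0 and 277.2 CPM in controls and 190.7, 307.4, 155.7 and 255.6 CPM with alpha-amanitin. These overlapped (log2 -0.19, SE 0.21). The low alpha-amanitin library was replicate 3 for both genes, which is the shallow library.

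Txn2 had 97.2 ± 11.5 CPM in controls and 75.0 ± 26.3 with alpha-amanitin, and Txnrd1 97.7 ± 10.7 and 105 ± 28.5 (SD, n = 4 each), with log2 fold changes of -0.34 (SE 0.28) and 0.13 (SE 0.23). The remaining 5 members were patchy in the second series. Prdx3 had 0, 4.93, 21.5 and 19.2 CPM in controls and 16.4, 8.61, 0 and 11.2 CPM with alpha-amanitin. Txn1 had 23.2, 13.6, 0 and 21.6 CPM in controls and 15.9, 6.12, 0 and 16.2 CPM with alpha-amanitin. So single libraries had no count of a gene that others held at over 20 CPM. With alpha-amanitin the library without a count was replicate 3, the shallow one, for both genes. In controls it was replicate 1 for Prdx3 and replicate 3 for Txn1. Prdx4 had a count in 1 of 4 libraries of each group and Prdx6 in 2 of 4. The standard errors of these 5 genes, 0.94 to 2.43 on the log2 scale, leave differences of several fold undetectable at this spread. The median log2 fold change of the 9 was -0.19, against -0.01 for all genes tested.

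Whether the c-Myc inhibitor and alpha-amanitin differ in their effect was tested as a contrast, each against the control of its own series, in a fit of the 22 embryo libraries and 15790 genes. Prdx1 had a difference of -0.93 on the log2 scale (SE 0.32, unadjusted p 0.00716), which did not pass at an edgeR adjusted p of 0.134. None of the 9 was called, where 1.04% of all genes tested were. The call on Prdx1 depended on 1 library and on the method. Without alpha-amanitin replicate 3 the difference was -1.13 with an edgeR adjusted p of 0.0384. With all 22 libraries it passed in limma voom (-1.14, adjusted p 0.0492). Differences for Prdx2, Txn2 and Txnrd1 were 0.40, 0.35 and -0.39, with edgeR adjusted p of 0.358, 0.587 and 0.439. The lower Prdx1 level is therefore shown for the c-Myc inhibitor against its control, but not as a difference between the inhibitors.

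**Figure D3:**
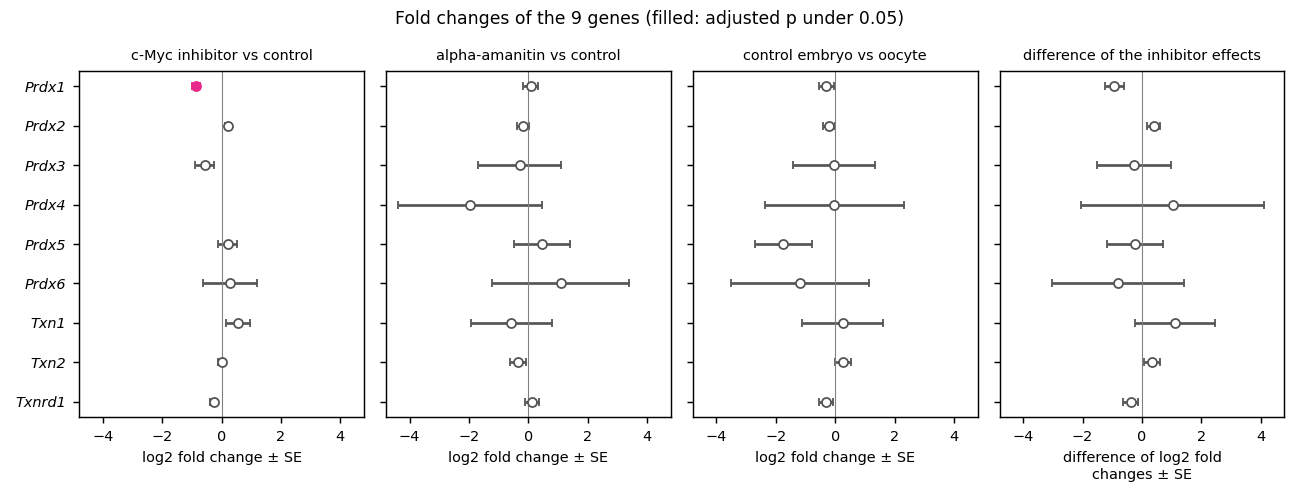
Log2 fold change of each gene (x axis) with its standard error as bars, in 4 panels: c-Myc inhibitor against control, alpha-amanitin against control, control embryo against oocyte, and the difference of both inhibitors' effects. Filled points passed an edgeR adjusted p of 0.05, and Prdx4 has no point in the first panel because it was below the filter there. Prdx1 in the first panel, at -0.86, is the filled point, and errors are small for Prdx1, Prdx2, Txn2 and Txnrd1 and large for the other 5 genes.

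Between the MII oocyte and the control embryo of the same series, none of the 9 genes was called, where 2.89% of all 13133 genes were. None of the 9 had an unadjusted p under 0.05 (edgeR), beside 14.1% of all genes tested. DESeq2 called none of them either, beside 285 higher and 485 lower among all genes tested. Prdx1 had 193.0, 162.7, 210.2 and 183.3 CPM in the 4 oocyte libraries, a range that overlaps the control embryos above. Its log2 fold change was -0.30 (SE 0.27, edgeR adjusted p 0.828). Prdx2 had 343.6, 301.8, 240.5 and 319.9 CPM in oocytes and, on the log2 scale, a difference of -0.20 (SE 0.21, edgeR adjusted p 0.877). For Txn2 and Txnrd1 it was 0.26 (SE 0.28) and -0.30 (SE 0.23). The median of the 9 was -0.20, against -0.03 for all genes tested.

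For 2 of the 9 genes, Txnrd1 and Prdx5, the oocyte and control embryo libraries did not overlap, as was so for 14.5% of all genes tested. Txnrd1 had 114.0 to 128.4 CPM in oocytes and 87.8 to 112.6 in control embryos, with an edgeR adjusted p of 0.756. Prdx5, an atypical peroxiredoxin that forms its disulfide within 1 chain, had 20.1, 19.6, 22.9 and 31.3 CPM in oocytes and 11.2, 5.19, 3.25 and 8.33 CPM in control embryos. Alpha-amanitin embryos had 11.6, 16.9, 8.71 and 0.420 CPM. No embryo library of either series, treated or not, reached the lowest oocyte library. The log2 fold changes were -1.75 (SE 0.96, edgeR adjusted p 0.483) for control embryos and -1.30 (SE 0.95, edgeR adjusted p 0.828) for alpha-amanitin embryos against the same oocytes, and neither passed in any setting tried. Ranges parted alpha-amanitin embryos from oocytes for Prdx5 among the 9 genes, and for 11.5% of all genes tested. Prdx5 shares 409 exon bases with Trmt112 on the opposite strand, and whether the counting used strand is unknown from the sources at hand. Trmt112 had 17.0 ± 3.33 CPM in oocytes and 21.5 ± 11.0 in control embryos (SD, n = 4 each).

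Alpha-amanitin embryos were also set against oocytes, a comparison that shares its libraries with the preceding ones. None of the 9 was called, where 1.71% of all genes tested were. The log2 fold changes of Prdx1, Prdx2, Txn2 and Txnrd1 were -0.22, -0.39, -0.08 and -0.17, beside -0.30, -0.20, 0.26 and -0.30 for control embryos against the same oocytes.

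The control embryos of both series carry the same labels, and setting them side by side shows how far levels move with the series. None of the 9 genes was called, where 3.52% of 16319 genes were (edgeR, all 26 libraries in the fit). Prdx1 had 137 ± 16.7 CPM in the first series (n = 7) and 153 ± 49.8 in the second (n = 4), and Prdx2 221 ± 29.6 and 263 ± 50.9 (SD). The widest gap was in Txn1, at 4.60 ± 1.62 and 14.6 ± 10.6 CPM (SD), with a log2 difference of -1.66 (SE 0.88) and an edgeR adjusted p of 0.276. The series and any other difference between these groups cannot be told apart.

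The 250 bases upstream of the Prdx1 start site are shown because c-Myc and its partner Max bind the E-box CACGTG, and because Nrf2 with small Maf proteins binds the antioxidant response element TGACNNNGC, through which peroxiredoxin and thioredoxin genes are known to respond to oxidative stress. The stretch lies at chr4:116685349-116685598 on the plus strand (RefSeq promoter table, GRCm38.p6), and the capitals mark the match to the antioxidant response element, which reads on the opposite strand and begins at -133 from the start site.
Prdx1: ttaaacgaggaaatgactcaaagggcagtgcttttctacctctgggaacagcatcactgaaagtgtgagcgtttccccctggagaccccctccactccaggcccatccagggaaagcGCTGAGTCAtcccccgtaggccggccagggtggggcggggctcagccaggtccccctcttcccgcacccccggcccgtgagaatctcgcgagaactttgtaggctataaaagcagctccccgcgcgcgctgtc

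Both motifs were searched on both strands, from 250 bases before to 50 after each start site. The RefSeq table held 10 promoters for 8 of the 9 genes, Prdx6 being without one. The E-box matched the promoter of Prdx4 alone, at -52, and matches 7.15% of all 32851 promoters in the table. The antioxidant response element matched that of Prdx1 and 1 of 3 promoters of Txnrd1, there at -92, and matches 12.4% of all promoters. No match of one motif overlapped a match of the other. A match describes the letters in the window and says nothing of binding.

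Over the 26 libraries Pearson's r of log2(CPM + 1) was 0.03 between Prdx1 and Prdx2, 0.45 between Prdx1 and Txnrd1 and -0.03 between Prdx1 and Txn2, as a description, since the libraries share groups and series. Among 7638 genes whose mean over the libraries reached 10 CPM, those most like Prdx1 by this measure were Pkd2l2 (r 0.87), Ube2g1 (0.87), Jak2 (0.87), Lrr1 (0.85) and Ect2 (0.84). These libraries include the treated ones in which Prdx1 was low, so the choice itself favours genes that are low there. Their log2 fold changes with the c-Myc inhibitor, as a description, were -0.25, -0.42, -0.42, -0.64 and -0.63.

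Genes that work around the peroxiredoxins were read from 8 lists holding 100 genes of the table. With the c-Myc inhibitor 78 of them passed the filter, 8 were higher and 1 was lower (edgeR adjusted p under 0.05), beside 6.82% and 4.08% of all genes tested. Of the higher genes 4 belong to the thiol oxidation of the endoplasmic reticulum, in which protein disulfide isomerases form and rearrange disulfide bonds and which Prdx4 serves as an oxidant source. Of the 13 genes of that list tested, 4 rose and none fell, and the list's median log2 fold change was 0.11. P4hb, the archetypal protein disulfide isomerase, had 38.9 to 78.7 CPM in controls and 124.3 to 261.2 CPM in treated libraries, with no overlap. Its log2 fold change was 1.57 (SE 0.16, edgeR adjusted p 1.25e-07). Txndc11, a thioredoxin-domain protein of the endoplasmic reticulum, had 28.3 to 43.0 and 71.0 to 135.5 CPM, again with no overlap (log2 1.54, SE 0.14, edgeR adjusted p 2.47e-08). Pdia6, a further disulfide isomerase, rose by 0.95 (SE 0.17) from 47.4 ± 13.6 to 90.9 ± 19.9 CPM, and Txndc5 by 0.63 (SE 0.09) from 148 ± 17.7 to 227 ± 26.9 CPM (SD, n = 7 each), with edgeR adjusted p of 0.00039 and 3.75e-05. Prdx4 itself, in the same compartment, stayed near 0 as given above. The oocyte marker sum was higher in the same treated libraries, and its part in these rises was not tested. So was the sum of the sperm list, which does not measure sperm.

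Of the 7 tested genes of peroxiredoxin repair and partners, 1 rose: Abl1, a tyrosine kinase that Prdx1 is known to bind, at 71.5 ± 12.4 against 48.3 ± 10.3 CPM (SD, n = 7 each; log2 0.58, SE 0.14, edgeR adjusted p 0.00956). That call was lost with the replicate number as a block (log2 0.45, edgeR adjusted p 0.0841) and in a fit of all 26 libraries (edgeR adjusted p 0.289). Srxn1, which restores over-oxidised peroxiredoxins, had a count in 1 library of second-series controls and in no other library of the 26. Of the 8 tested enzymes of peroxide and superoxide removal outside the family, 1 rose. Gpx4, a selenoprotein that reduces lipid peroxides, had 0.952 to 9.27 CPM in controls and 11.3 to 30.8 CPM in treated libraries, with no overlap (log2 1.59, SE 0.37, edgeR adjusted p 0.00528). That call was lost in a fit of all 26 libraries, at a log2 fold change of 1.57 with an edgeR adjusted p of 0.618. The list's median was -0.50, opposite in sign to Gpx4. Sod1, the cytosolic superoxide dismutase, had 204 ± 21.9 and 214 ± 17.0 CPM (SD, n = 7 each), with an edgeR adjusted p of 0.669, and Cat, catalase, stood at 1.57 ± 1.35 and 0.533 ± 0.585 CPM (SD, n = 7 each).

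Among 13 tested relatives of thioredoxin, Glrx5, a mitochondrial glutaredoxin, rose by 0.39 (SE 0.12, edgeR adjusted p 0.036) and Txndc9 fell by 0.24 (SE 0.08, edgeR adjusted p 0.0391). Leaving out 1 library ended the call in 9 of 14 fits for Glrx5 and in 12 of 14 for Txndc9. Txnip, which binds and inhibits thioredoxin, had 593 ± 149 CPM in controls and 550 ± 99.8 with the c-Myc inhibitor (SD, n = 7 each; log2 -0.09, SE 0.13, edgeR adjusted p 0.772), and Txnrd2, the mitochondrial reductase, was below 1 CPM on average in every group. Of 16 tested genes of Nrf2 and its targets, 1 rose: Slc7a11, the cystine carrier, at 264 ± 24.8 against 156 ± 22.7 CPM (SD, n = 7 each; log2 0.77, SE 0.09, edgeR adjusted p 2.08e-06). Nfe2l2, which encodes Nrf2, had 16.8 ± 4.96 and 12.7 ± 6.65 CPM, and Keap1, its inhibitor, 12.5 ± 3.56 and 12.0 ± 4.31 (SD, n = 7 each), with edgeR adjusted p of 0.512 and 0.945. None of 9 thioredoxin clients, 9 genes of selenoprotein synthesis or 3 of mitochondrial NADPH supply was called.

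Between oocyte and control embryo 4 of the 80 related genes tested were lower and none higher, beside 1.78% and 1.11% of all genes tested. Txnip had 849.5 to 999.4 CPM in oocytes and 292.4 to 626.4 CPM in control embryos, with no overlap (log2 -0.95, SE 0.22, edgeR adjusted p 0.0189). It no longer passed without oocyte replicate 1, oocyte replicate 4 or control replicate 3, with adjusted p of 0.055, 0.0637 and 0.0537. P4hb had 163.7 ± 26.5 and 29.8 ± 14.1 CPM (log2 -2.47, SE 0.36), Txndc5 282 ± 46.4 and 118 ± 50.6 (log2 -1.26, SE 0.24) and Slc7a11 476.5 ± 18.5 and 158 ± 35.8 (log2 -1.60, SE 0.19; SD, n = 4 each). Their edgeR adjusted p were 0.000425, 0.00468 and 6.12e-05. P4hb, Txndc5 and Slc7a11 were thus lower in control embryos than in oocytes, and higher with the c-Myc inhibitor than in first-series controls. The share of all genes that did both was not counted, so the pattern cannot be called particular to these genes. The oocyte marker sum, at 8841 to 9676 CPM in oocytes, 4918 to 6227 in second-series controls, 4717 to 6558 in first-series controls and 7644 to 9168 with the c-Myc inhibitor, was lower and higher in the same groups as these genes, and its part in these results was not tested. With alpha-amanitin none of 80 related genes was called against control, where 0.0305% of all genes tested were. Against the same oocytes 3 of the 80 were lower in alpha-amanitin embryos and 1, Nfe2l1, a relative of Nrf2, was higher, beside 1.27% and 0.442% of all genes tested. The lower ones were P4hb (log2 -2.29, edgeR adjusted p 0.00102), Slc7a11 (log2 -1.77, edgeR adjusted p 2.29e-05) and Txnip. Txnip had 458 ± 151 CPM (SD, n = 4; edgeR adjusted p 0.0192), and it no longer passed without oocyte replicate 1 or 4 or without alpha-amanitin replicate 2 or 4. The difference between the inhibitors' effects passed for 1 of 84 related genes, beside 1.04% of all genes tested. It was Slc7a11, at 0.95 (SE 0.21, edgeR adjusted p 0.0213), and at 0.78 with an adjusted p of 0.0564 without second-series control replicate 4. DESeq2 called 7 of the related genes for that difference, beside 413 higher and 629 lower among all 15790 genes. With other filters or in a fit of all 5 groups 2 to 3 were called. Beside these stood 234 and 209 of 33211 genes with no filter, 123 and 60 of 10196 with a stricter one, and 155 and 90 of 16319 in that fit. Between the control embryos of the series 2 of 86 related genes were higher in the first and 2 lower, beside 3.52% of all genes called in either direction. P4hb had 58.7 ± 13.2 CPM in the first (n = 7) and 29.8 ± 14.1 in the second (n = 4; log2 0.98, SE 0.25, edgeR adjusted p 0.0205). Its gap was 0.69 with an adjusted p of 0.0712 without second-series control replicate 3. Sod1 had 204 ± 21.9 and 289 ± 44.8 CPM (SD; log2 -0.50, SE 0.13, edgeR adjusted p 0.0181). Its call was lost with no filter, without first-series control replicate 7 and without second-series control replicate 1 or 3.

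**Figure D4:**
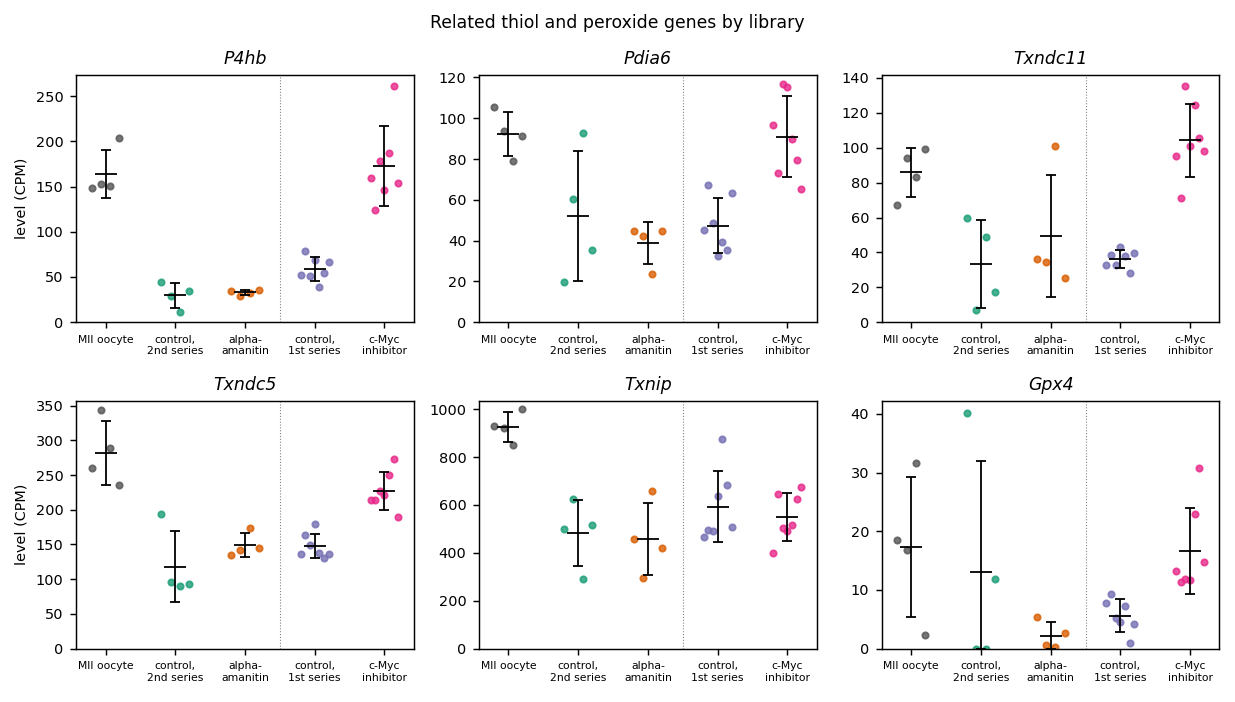
Level of 6 related genes in each library, in CPM with TMM-scaled totals (y axis, from 0), by group (x axis), drawn as for the members: points are libraries, lines are means, bars are ± SD cut off at 0, and the dotted line parts the second series from the first. P4hb stands at 124.3 to 261.2 CPM with the c-Myc inhibitor and 148.4 to 203.4 CPM in oocytes, above all control and alpha-amanitin embryo libraries, while Txnip has its highest group mean in oocytes and overlaps them only in the first-series controls.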

How the data were processed

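RNA was measured in 26 libraries of mouse oocytes and 1-cell embryos. The file deposited by the authors holds raw whole-number counts for 55401 Ensembl IDs. Trimming used cutadapt 1.7.1 and alignment STAR 2.5.0a on GRCm38, per the submitters' processing notes. How reads were counted, and with which strand setting, is not stated in the labels. Per the labels' protocols the kit was stranded. Symbols, loci and exon lengths came from GENCODE vM21.

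Counts were tested with the edgeR 4.0.16 quasi-likelihood F test in R 4.3.3, with TMM scaling, filterByExpr (minimum count 10, minimum total count 15) and a Benjamini-Hochberg threshold of 0.05 over all genes. The c-Myc inhibitor and its control were fitted alone, and the 3 groups of the second series together. The code was tested on simulated data. The alternatives were DESeq2 1.42.0, limma 3.58.1 voom, DESeq2 size factors, other filters, other sets of libraries in the fit, the replicate number as a block, and leaving out each library. All 9 members are named. The related genes named were those called with the c-Myc inhibitor or between oocyte and control embryo, and 8 fixed ones; Nfe2l1 was named after its values were seen. Genes most like Prdx1 were the 5 with the highest correlation. The members and lists were chosen with earlier results of these data known.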

Additional observations from a re-analysis of the deposited data

Results flagged for a closer look

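In 7 of 45 groups of libraries, 1 library stood farther from the others than Dixon's 95% limit allows. That limit marks about 1 in 20 groups of normally distributed values. Several of these genes lie near 0 CPM, so 7 of 45 cannot be set against that share. Prdx1 was at 86.7 CPM in alpha-amanitin replicate 3, the shallow library, against 173.8 to 191.3 CPM in the other 3. Prdx4 was at 3.43 CPM in second-series control replicate 3 and at 0.832 CPM in alpha-amanitin replicate 2. The other 3 libraries of either group had no count, so any count in 1 library would have been marked. In first-series control replicate 7 it was at 3.67 CPM, against 0 to 0.0775 CPM in the other 6. Prdx5 was at 13.0 CPM in first-series control replicate 6, against 5.70 to 8.02 CPM in the other 6. Prdx6 was at 6.61 CPM in oocyte replicate 4, against 0.338 to 0.905 CPM, and at 6.57 CPM in alpha-amanitin replicate 1, against 0 to 0.881 CPM. Of these 7, only the Prdx1 value bears on a call, that on the difference between the inhibitors given above.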

How the results depend on the processing

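Prdx1 with the c-Myc inhibitor kept its direction and its call in the 7 other settings and the 14 fits without 1 library. No other member was called in any comparison or setting run. Prdx1 was also called in the difference between the inhibitors, where the members called numbered 1 with limma voom and 0 to 1 when single libraries were left out. Among all genes, limma voom called 110 higher and 57 lower of 15790 for that difference. Leaving out single libraries gave 67 to 167 higher and 25 to 113 lower. The cause was not tested. Same-numbered libraries showed no sign of pairing (correlations from -0.031 to 0.049), which does not exclude that they share an origin. With the replicate number as a block Prdx1 stood at -0.91 (edgeR adjusted p 0.0015) and no count of members called changed where it could be fitted, while the genes called with the c-Myc inhibitor went from 887 higher and 531 lower to 701 and 291.

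Every other change of sign was in a value that passed in no setting, and its cause was not tested. On the log2 scale Txn2 with the c-Myc inhibitor turned to -0.0183 (DESeq2, and edgeR with its size factors), -0.0098 (limma voom), -0.00671 (stricter filter), -0.0119 (all 5 groups) and -0.0368 (replicate block), and Txnip to 0.0346 (replicate block). With limma voom signs turned for alpha-amanitin against control in Prdx3 (0.78), Prdx5 (-0.15) and Txn1 (0.92), for control embryo against oocyte in Txn1 (-1.84), for the difference between inhibitors in Prdx5 (0.30), Prdx6 (0.75) and Txn1 (-0.49), and between the series' controls in Txn1 (0.56). With the replicate block they turned in Prdx3 for alpha-amanitin against control (0.52) and against oocyte (0.25), and in Txn1 for control embryo against oocyte (-1.19).

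Leaving out 1 library gave these ranges across 0. With the c-Myc inhibitor: Prdx6 -0.0026 to 0.94, Txn2 -0.061 to 0.0512, Keap1 -0.23 to 0.0284, Txnip -0.16 to 0.0228. Alpha-amanitin against control: Prdx1 -0.13 to 0.27, Prdx3 -0.78 to 0.21, Prdx4 -7.17 to 5.18, Prdx6 -1.56 to 2.03, Txnrd1 -0.0797 to 0.22, Prdx1 to Prdx2 ratio -0.0573 to 0.42. Control embryo against oocyte: Prdx3 -0.56 to 0.38, Prdx4 -7.20 to 0.38, Prdx6 -2.14 to 0.66, Txn1 -0.0732 to 0.74, ratio -0.27 to 0.20. Alpha-amanitin embryo against oocyte: Prdx3 -0.82 to 0.0652, Prdx6 -2.76 to 1.73, Txn1 -0.71 to 0.15, Txn2 -0.38 to 0.0606, ratio -0.0145 to 0.30. Difference between inhibitors: Prdx3 -0.76 to 0.21, Prdx4 -6.20 to 6.28, Prdx5 -0.65 to 0.17, Prdx6 -1.72 to 1.83. Between the series' controls: Prdx3 -0.29 to 0.62, Prdx4 -5.00 to 6.58, Prdx5 -0.0949 to 0.48.

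Counts over all genes moved more. With limma voom the median log2 value of all genes was -0.31 for control embryo against oocyte and 0.43 between the series' controls, against -0.0282 and 0.0874 in edgeR. With the c-Myc inhibitor the genes called were 1054 higher and 859 lower with DESeq2 and 266 and 115 in a fit of all 5 groups, where 5 related genes were called. For alpha-amanitin against control they were 3 and 1, but 91 and 32 with DESeq2, 74 and 15 with no filter, 63 and 40 with all 5 groups, 3 and 7 with limma voom, and 0 with the block or with only those groups fitted. For control embryo against oocyte they were 146 and 234, but 285 and 485 with DESeq2, 280 and 660 with limma voom, 572 and 837 with all 5 groups, and 293 and 471 with only those groups fitted. For alpha-amanitin embryo against oocyte they were 58 and 167, but 204 and 312 with DESeq2, 141 and 401 with limma voom, 186 and 286 with no filter, and 329 and 530 with all 5 groups. For the difference between inhibitors they were 107 and 58, but 413 and 629 with DESeq2 and 234 and 209 with no filter, and between the series' controls 360 and 215, but 1175 and 476 with DESeq2 and 894 and 298 with limma voom. Between oocyte and control embryo the related genes called were 7 with DESeq2, 10 with those groups alone in the fit, and 12 with limma voom or all 5 groups. For alpha-amanitin embryo against oocyte they were 8 with limma voom and 12 with all 5 groups, against 4, and 2 without oocyte replicate 1. The settings for related genes and for the ratio were added after the data were seen. In a fit of all 5 groups Abl1, Glrx5, Gpx4 and Txndc9 lost their calls with the c-Myc inhibitor, and with the block Abl1, Glrx5 and Txndc9 did. With no filter Glrx5 and Txndc9 lost theirs too. Prdx3, Prdx4, Prdx6 and Txn1 each had second-series libraries without a count, so changes of several fold in them were not detectable at this spread.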
